A study of Mus musculus with 8 samples.

Results

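How far 25HC altered the PAM3 response was measured in acetyl-H4 ChIP-seq of bone-marrow-derived macrophages from C57BL/6 mice. The value, called the difference, is the response after 25HC (25HC then PAM3 minus 25HC) minus the response without it (PAM3 minus untreated), so a positive value means that the PAM3 response was higher after 25HC. All 8 of the 8 libraries entered it, in 4 groups of 2: 25HC then PAM3, 25HC alone, PAM3 alone, and untreated. Mouse A and mouse B gave 1 library each to every group, all wild-type C57BL/6 cells with no further allele or agent in the labels. Each library was a list of deposited peaks. A gene's called length is the number of bp that those peaks cover from 5 kb before its body to 5 kb after it. The test took in 14586 of 21883 protein-coding genes, those that averaged 500 bp or more over the 8 libraries. Of these, 12759 had peaks in all 8 libraries, 370 had a group at 0 bp in both libraries, and 1457 had a library at 0 bp but no such group. The label for stimulation time carries no unit and reads 18 with PAM3 and 0 without it, so an effect of PAM3 and one of that time cannot be told apart. The time and dose of 25HC are not known from these sources.

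Acetylation of the histone H4 tail marks active promoters and enhancers, and a longer acetylated stretch is called where the mark spreads. PAM3 is the usual short name of the synthetic lipopeptide Pam3CSK4, which is sensed by the receptor pair of Tlr1 and Tlr2 and acts through MyD88 and NF-κB on inflammatory genes. 25HC is the usual short name of 25-hydroxycholesterol, an oxysterol that macrophages make with the enzyme encoded by Ch25h, that holds back cholesterol synthesis through Insig1 and SREBP and is a ligand of the LXR receptors.

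The lists held 48446 to 54552 peaks that covered 56.6 to 72.4 Mb per library. No read counts were in the lists, so depth is unknown and no counting interval is given. The 2 PAM3 libraries lay at both ends of that range, with 56.6 Mb in mouse A and 72.4 Mb in mouse B. All 10 defining macrophage genes, among them Spi1, Csf1r and Adgre1, carried peaks in all 8 libraries. The labels name the 2 libraries of a group mouse A and mouse B, so the tests measure the spread between these mice. The cells are a bulk culture, in which fewer cells of a type and less acetylation per cell cannot be told apart.

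No gene passed the test of the difference. With limma and Benjamini-Hochberg adjustment, 0 of 14586 genes (0%) had an adjusted p under 0.05. The smallest adjusted p was 0.0734 and was shared by 20 genes, and with the mouse as a block it was 0.214. At an unadjusted p under 0.05 there were 1436 genes (9.85%), 781 positive (5.35%) and 655 negative (4.49%). The share was 9.57% among genes with peaks in all 8 libraries, 35.9% where a group was at 0 bp and 5.63% where a library but no group was. Leaving out 1 library changed the count: 192 genes passed without PAM3 from mouse A, 159 without 25HC then PAM3 from mouse A, 16 without 25HC then PAM3 from mouse B, 1 without PAM3 from mouse B, and none without any of the other 4. With only peaks of a deposited −log10 q of at least 5, the difference changed sign for 22 named genes, among them Sod2, Dennd1b, C1qa, Adgre1, Prdx1, Lcn2, Clec7a, Il12a, Traf6, Yars2 and Map3k7cl.

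Each PAM3 response alone did contain genes that passed. After 25HC, 398 genes rose (2.73%) and 335 fell (2.3%), together 733 (5.03%). Without 25HC, 275 rose (1.89%) and 287 fell (1.97%), together 562 (3.85%). Both tests passed for 245 genes, which were 33.4% of the first list and 43.6% of the second, and 240 of them moved in the same direction. Of the 488 genes that passed only after 25HC, 289 had a difference at an unadjusted p under 0.05, beside 9.85% of all tested genes. In 425 of the 488 the responses had the same sign. Of the 317 that passed only without 25HC, those counts were 209 and 251. Passing in only 1 response itself selects for a difference, so these counts cannot show one. With the mouse as a block 281 genes passed after 25HC and 168 without it, 270 and 165 of which also passed without the block. Without 1 library the count after 25HC was 556 or 326 (25HC then PAM3 from mouse A or B left out), 250 or 108 (25HC), 814 or 812 (PAM3), and 359 or 357 (untreated). The count without 25HC was then 304 or 314, 185 or 188, 872 or 272, and 160 or 283. A response is called by the test without the block, and where the block ends the call its adjusted p is given beside it. Among the responses described for genes with peaks in all 8 libraries, those of Cxcl2, Sod2, Adgre1 and Lcn2 after 25HC and those of Psmd1, Adtrp, Bms1, Siglech, Adgre1 and Lcn2 without it passed in all 8 fits that leave out 1 library. The groups of the 2 responses share no library. Across the 12759 genes with peaks in all 8 libraries the responses correlated at r = 0.506, a description over genes that share libraries and, often, windows.

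**Figure D1:**
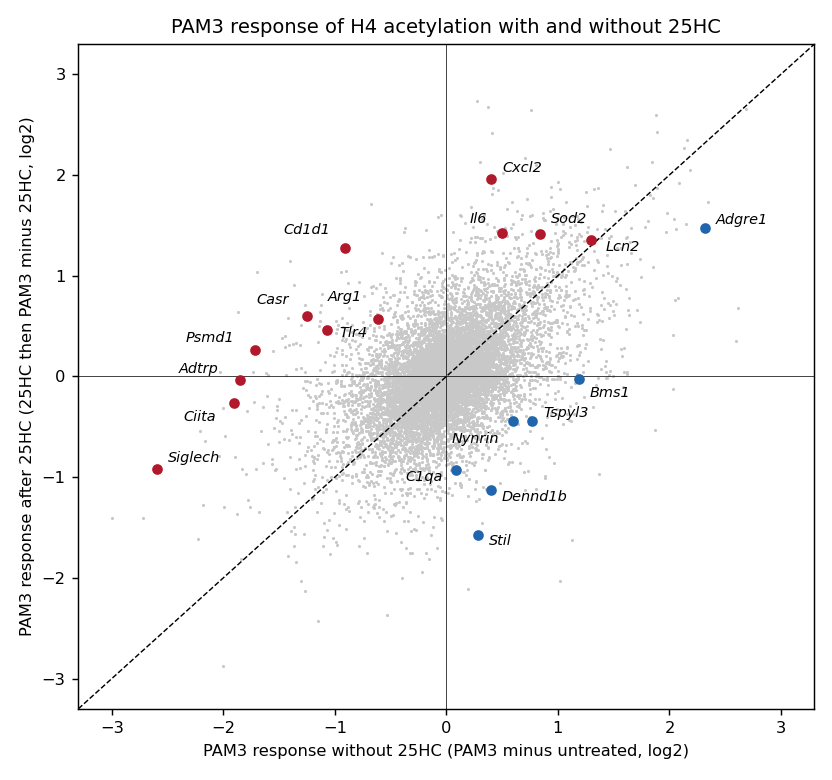
Each grey point is 1 of the 12759 genes with peaks in all 8 libraries, with the PAM3 response after 25HC on the y axis and without 25HC on the x axis, both as log2 of called length plus 500 bp. Named genes above the dashed line of equal responses are red and those below it are blue; Cxcl2 and Cd1d1 lie above it and Stil and Bms1 below.

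The difference varied across genes and, where all 8 libraries had peaks, agreed only weakly between the mice. Its SD across genes with peaks in all 8 libraries was 0.44 on the log2 scale, beside a median standard error of 0.24. The values of mouse A and mouse B correlated at r = 0.214 over these genes, and 54.5% had the same sign in both. In genes with a group at 0 bp r was 0.594 and 74.6% had the same sign; since both libraries of a group at 0 move together, that class holds the similarity by its definition. In genes with a library but no group at 0 bp r was 0.0621.

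**Figure D2:**
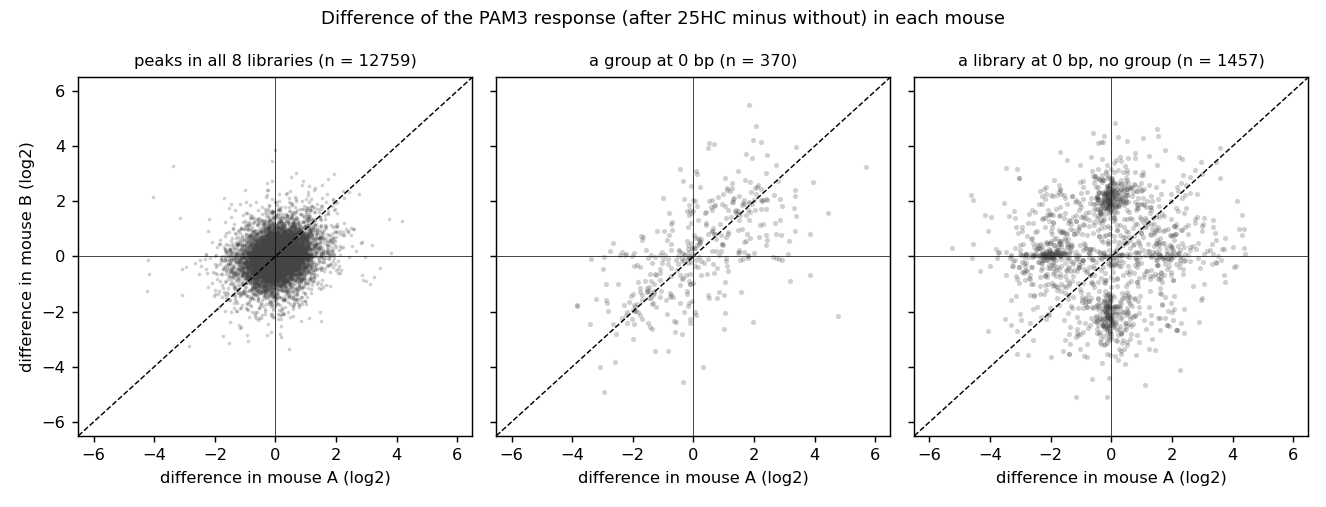
The difference of the PAM3 response in mouse A (x axis) against mouse B (y axis), in log2 units, for genes with peaks in all 8 libraries, with a group at 0 bp, and with a library but no group at 0 bp. The right panel shows arms along both axes, where the value of 1 mouse is far from 0 and that of the other is near it; r was 0.0621 there.

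Among the 1436 genes at an unadjusted p under 0.05, the group whose mean lay farthest from the other 3 was 25HC then PAM3 in 672 (46.8%), PAM3 in 463 (32.2%), untreated in 165 (11.5%) and 25HC in 136 (9.47%). Over all tested genes those shares were 33.3%, 27.2%, 22.0% and 17.5%. The 672 genes were split evenly, with 336 above and 336 below the other groups. Over all tested genes 2233 were above and 2631 below in 25HC then PAM3. In the PAM3 group 199 were above and 264 below, beside 1713 above and 2251 below over all tested genes.

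Toll-like receptor genes held 1 of the 20 genes with the smallest adjusted p. Tlr4 encodes the endotoxin receptor. Its window had 8609 and 10651 bp called in 25HC then PAM3, 6610 and 6822 bp in 25HC, 2264 and 2943 bp in PAM3, and 6110 and 6283 bp in untreated libraries. The 2 PAM3 libraries were lower than all others and the 25HC then PAM3 libraries higher than all others. Tlr4 fell with PAM3 without 25HC, by 1.07 ± 0.11 (SE) on the log2 scale (limma adjusted p = 0.0159), and its response after 25HC was 0.46 ± 0.11 (adjusted p = 0.0808). The difference was 1.53 ± 0.16, with 1.44 in mouse A and 1.62 in mouse B (limma adjusted p = 0.0734). Tlr4 spans chr4:66827551-66846581 on GRCm38. A peak over its lower-coordinate end, 3792 and 4456 bp long in 25HC then PAM3, 3423 and 3595 bp in 25HC, and 3669 and 3526 bp in untreated libraries, was absent from both PAM3 libraries. Shorter peaks 15.7 kb into the gene were called in all 8 libraries.

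**Figure D3:**
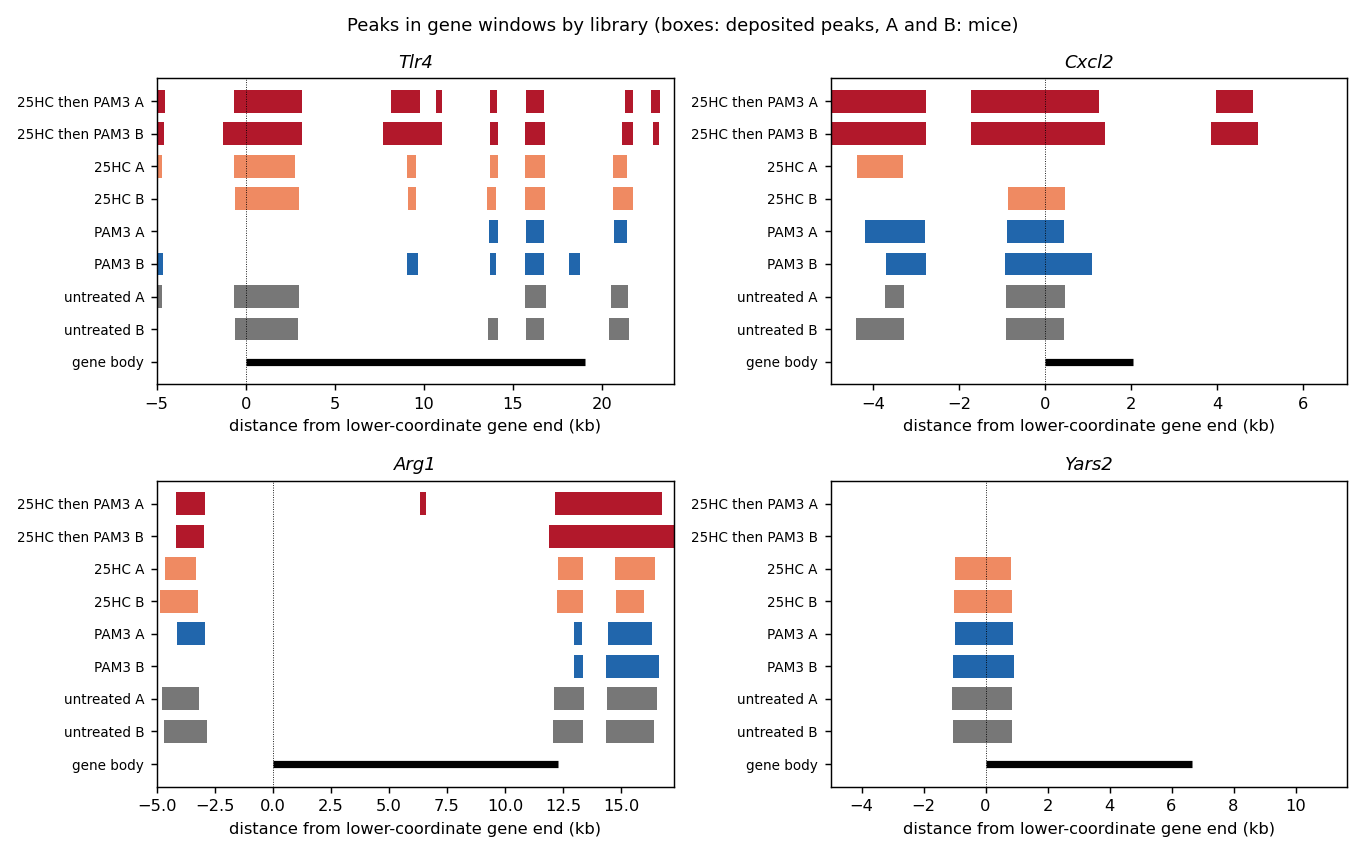
Deposited peaks in the windows of Tlr4, Cxcl2, Arg1 and Yars2, 1 row per library, against the distance in kb from the end of the gene body with the lower coordinate. The peak at 0 kb of Tlr4 is missing in the 2 PAM3 rows and the peak at 0 kb of Yars2 in the 2 25HC then PAM3 rows; at Cxcl2 the peaks, and at Arg1 the peak over the end with the higher coordinate, are longest in the 25HC then PAM3 rows.

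Cd14, the co-receptor of Tlr4, had 5240 and 6774 bp in 25HC then PAM3, 2871 and 2837 bp in 25HC, 2499 and 3510 bp in PAM3, and 2973 and 2784 bp in untreated libraries. It rose with PAM3 after 25HC by 0.92 ± 0.13 on the log2 scale (limma adjusted p = 0.0249, and 0.0519 with the block), while the response without 25HC was 0.09 ± 0.13 (adjusted p = 0.802). The difference of 0.84 ± 0.19 did not pass (adjusted p = 0.243). The receptors of the lipopeptide itself had small differences, 0.04 ± 0.14 for Tlr1 and −0.04 ± 0.21 for Tlr2; that of Tlr2 turned positive without any of 4 single libraries and under other settings, and neither passed. Traf6, the ubiquitin ligase downstream of MyD88, had a difference of −0.43 ± 0.15 (adjusted p = 0.439). Of the 21 receptor and adaptor genes tested, 2 were positive and 2 negative at an unadjusted p under 0.05, none passed, and their median was −0.01, equal to the −0.01 over all tested genes.

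**Figure D4:**
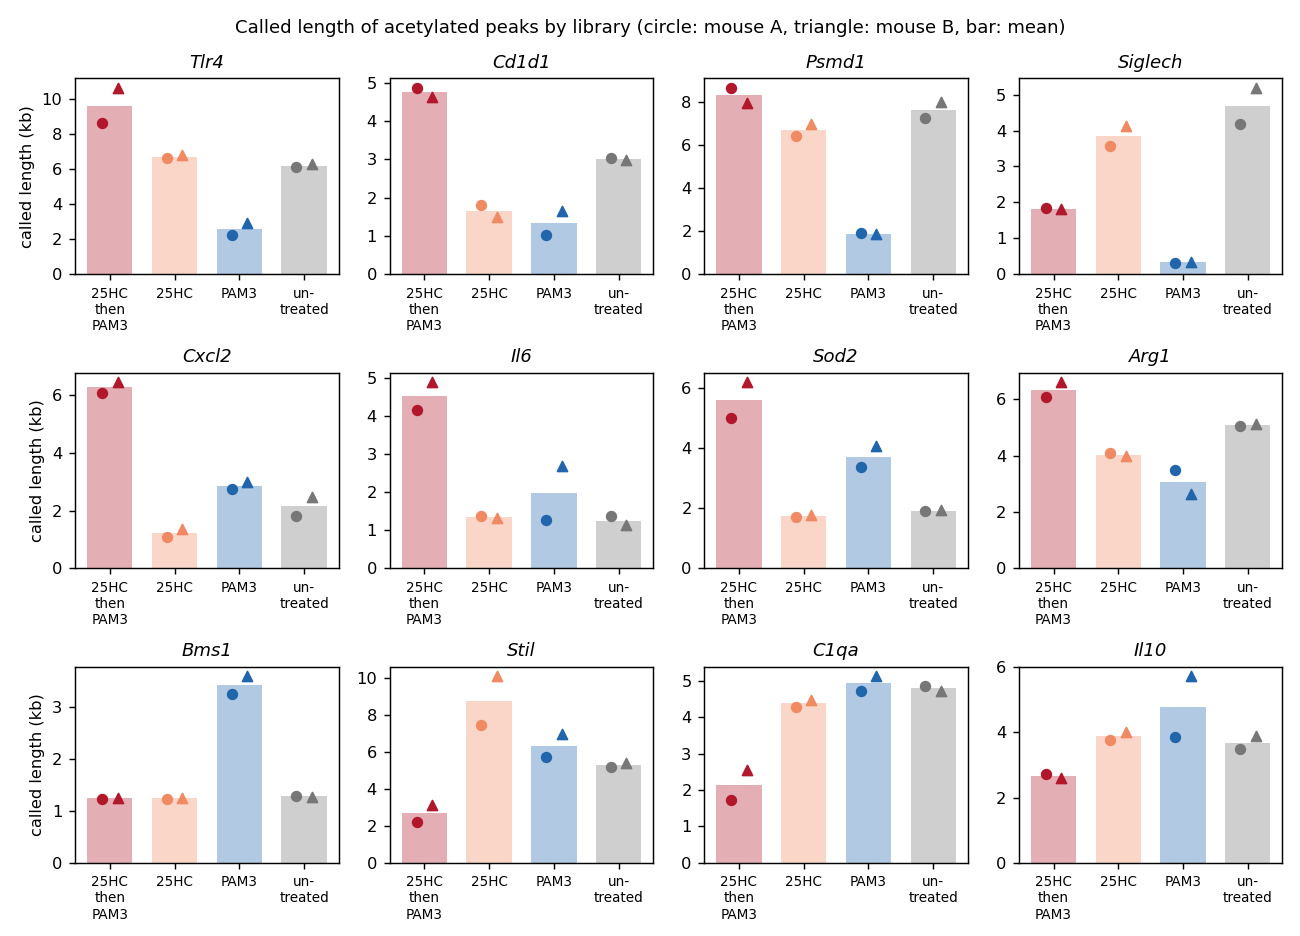
Called length in kb of 12 genes by group, with a circle for mouse A, a triangle for mouse B and a bar at the mean of the 2. The bars of Tlr4, Cxcl2, Il6 and Sod2 are tallest in 25HC then PAM3, those of Tlr4, Psmd1 and Siglech are shortest in PAM3, and that of C1qa is shortest in 25HC then PAM3.

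Cytokine and chemokine genes held more positive than negative values. Of 34 tested, 6 were positive (17.6%) and 1 negative (2.94%) at an unadjusted p under 0.05, beside 5.35% and 4.49% of all tested genes. A value above 0 was held by 7104 of all 14586 tested genes and by 23 of these 34, and none of the 34 passed. Their median difference was 0.21 on the log2 scale, against −0.01 over all tested genes, and lay between 0.13 and 0.43 in the 24 alternative settings. Their median PAM3 response was 0.54 after 25HC and 0.09 without it. Several of these genes lie in clusters whose windows can share peaks. The same 5.35% and 4.49%, and the 7104 of 14586 above 0, stand against the counts of every other list given here, none of which was tested as a list. Some genes count in more than 1 list, as Cd14, Srebf1, Tgm2 and Slc7a11 do.

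Cxcl2, a chemokine that draws neutrophils, had 6074 and 6446 bp in 25HC then PAM3, 1076 and 1353 bp in 25HC, 2744 and 2972 bp in PAM3, and 1826 and 2456 bp in untreated libraries. Both 25HC then PAM3 libraries were above all others and both 25HC libraries below all others. Cxcl2 rose with PAM3 after 25HC by 1.96 ± 0.15 on the log2 scale (limma adjusted p = 0.00844), and its response without 25HC was 0.40 ± 0.15 (adjusted p = 0.226). The difference was 1.56 ± 0.21, 1.40 in mouse A and 1.71 in mouse B (adjusted p = 0.125). The peak at its start was 2997 and 3118 bp long in 25HC then PAM3, 0 and 1323 bp in 25HC, 1329 and 2035 bp in PAM3, and 1383 and 1340 bp in untreated libraries. A peak upstream of it was 2852 and 5377 bp long in 25HC then PAM3 and 1076 bp in 25HC from mouse A. It was 1415 and 937 bp long in PAM3, and 443 and 1116 bp in untreated libraries. These are whole lengths, and in 25HC then PAM3 the peak began at −5.63 and −8.15 kb from the start, outside the window. In 25HC from mouse B the upstream peak, 666 bp, lay apart from those of 25HC from mouse A, PAM3 and untreated libraries. It ran from −5.64 to −4.97 kb, largely outside the window. A peak downstream, 852 and 1105 bp long in 25HC then PAM3, was not called in the other 6 libraries. Within 2 kb of the start of Cxcl2 the difference was 1.64 ± 0.83 and did not pass (limma adjusted p = 0.81). The promoter of Cxcl2 is shown because the peak over it varied in length. Every library covered it in full except 25HC from mouse A, which did not cover it. It is chr5:90903649-90903948 on the plus strand of GRCm38.p6 (RefSeq), 300 bases, with capitals for matches to a κB motif (GGNNTTTCC) or a PU.1 core (GAGGAA) on either strand.
Cxcl2: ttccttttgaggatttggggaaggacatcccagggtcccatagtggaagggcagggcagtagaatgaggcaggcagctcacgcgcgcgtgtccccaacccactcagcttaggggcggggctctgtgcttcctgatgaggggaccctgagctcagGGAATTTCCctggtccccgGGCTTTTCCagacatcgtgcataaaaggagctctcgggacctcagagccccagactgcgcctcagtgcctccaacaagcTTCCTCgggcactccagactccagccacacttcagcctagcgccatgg
It holds 2 κB matches and 1 PU.1 core and no AP-1 motif (TGANTCA). Of 21262 promoters of this length, 5.74% hold the κB letters, 27.4% the PU.1 letters and 6.99% the AP-1 letters. The form searched first, with 1 more G in front of the κB letters, is held by 1.6% of promoters and by the same 2 stretches of Cxcl2. The matches in Cxcl2 do not overlap each other, and a match describes these letters only.

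Il6, a cytokine of the acute phase, had 4166 and 4902 bp in 25HC then PAM3, 1369 and 1324 bp in 25HC, 1283 and 2696 bp in PAM3, and 1376 and 1130 bp in untreated libraries. It rose with PAM3 after 25HC by 1.42 ± 0.22 (limma adjusted p = 0.0279, and 0.0582 with the block), with a response without 25HC of 0.50 ± 0.22 (adjusted p = 0.293) and a difference of 0.92 ± 0.30 (adjusted p = 0.415). Cxcl3, a chemokine near Cxcl2, had a difference of 1.41 ± 0.42 (adjusted p = 0.352). Il12a, which encodes the p35 subunit of interleukin-12, had 3129 and 3184 bp in 25HC then PAM3, 0 bp in both 25HC libraries, 1156 and 3138 bp in PAM3, and 380 and 356 bp in untreated libraries. Its window is one of those with a group at 0 bp. Il10, an anti-inflammatory cytokine, went the other way, with 2718 and 2594 bp in 25HC then PAM3, 3751 and 4019 bp in 25HC, 3863 and 5724 bp in PAM3, and 3496 and 3876 bp in untreated libraries. Both 25HC then PAM3 libraries were below the other 6, and the difference was −0.86 ± 0.19 (adjusted p = 0.244).

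The differences of other cytokine genes did not pass either. The difference was 0.95 ± 0.40 for Cxcl1, 0.64 ± 0.39 for Il1b, 0.20 ± 0.34 for Il12b, −0.07 ± 0.13 for Tnf and −0.12 ± 0.22 for Ccl7. Ccl7, a monocyte chemokine, rose with PAM3 in both settings, by 0.89 ± 0.16 after 25HC (limma adjusted p = 0.0415, and 0.0791 with the block) and by 1.01 ± 0.16 without it (adjusted p = 0.0361, and 0.0737 with the block).

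Inflammatory effectors and feedback genes of NF-κB had 46 tested members, with 5 positive (10.9%) and 1 negative (2.17%) at an unadjusted p under 0.05, none passing and a median of 0.10. Sod2, the mitochondrial superoxide dismutase, had 5019 and 6204 bp in 25HC then PAM3, 1714 and 1769 bp in 25HC, 3374 and 4070 bp in PAM3, and 1904 and 1946 bp in untreated libraries. The groups did not overlap between libraries with and without PAM3. Sod2 rose in both settings, by 1.42 ± 0.11 after 25HC (limma adjusted p = 0.00748) and by 0.84 ± 0.11 without it (adjusted p = 0.0218, and 0.0505 with the block), and the difference of 0.57 ± 0.15 did not pass (adjusted p = 0.3) and was negative in 3 settings that rank or weight peaks by their deposited q or fold. Lcn2, an iron-binding acute-phase protein, and Acod1, the enzyme that makes itaconate, also rose in both. The response of Lcn2 was 1.36 ± 0.10 after 25HC and 1.30 ± 0.10 without it (limma adjusted p = 0.00748 and 0.0117), with a difference of 0.06 ± 0.14. That of Acod1 was 1.04 ± 0.19 and 1.09 ± 0.19 (adjusted p = 0.0428 for both, and 0.0796 and 0.0841 with the block), with a difference of −0.05 ± 0.27 that turned positive under several settings. Within 2 kb of its start Lcn2 had 2957 and 2940 bp in 25HC then PAM3, and 2647 and 3004 bp in PAM3. It had 0 bp there in both 25HC and both untreated libraries, so the bp called in those lay elsewhere in its window. That window overlaps those of Ciz1, 1110008P14Rik and Ptges2. Cd40, a co-stimulatory receptor, had a difference of −0.52 ± 0.16 (adjusted p = 0.358).

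Ptgs2, the inducible cyclooxygenase, had 2576 and 3689 bp in 25HC then PAM3, 0 bp in both 25HC libraries, 1044 and 2392 bp in PAM3, and 0 and 1016 bp in untreated libraries. Mmp13, a collagenase, had 2737 and 3712 bp in 25HC then PAM3, 1085 and 0 bp in 25HC, 0 and 823 bp in PAM3, and 2847 and 1830 bp in untreated libraries. Its difference did not pass (limma adjusted p = 0.28). Nos2, the inducible nitric oxide synthase, had a difference of 0.76 ± 0.56, with −0.11 in mouse A and 1.63 in mouse B.

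Immediate-early and AP-1 genes had 29 tested members, with 3 positive (10.3%) and none negative at an unadjusted p under 0.05, and a median of 0.0038. The 3 were Fosl2, an AP-1 subunit (1.15 ± 0.24, limma adjusted p = 0.224), Egr2, a zinc-finger factor (0.72 ± 0.23, adjusted p = 0.401), and Dusp5, a phosphatase of ERK (0.83 ± 0.30, adjusted p = 0.458). Atf3, a repressor of inflammatory genes, had a difference of 0.20 ± 0.19. Interferon-stimulated genes had 34 tested members, with 4 positive (11.8%), none negative and a median of −0.06. Igtp, an interferon-induced GTPase, had 2774 and 2960 bp in 25HC then PAM3, 1846 and 1891 bp in 25HC, 1337 and 1756 bp in PAM3, and 1953 and 1764 bp in untreated libraries. It rose after 25HC by 0.48 ± 0.09 (limma adjusted p = 0.0483, and 0.0871 with the block), with a response without 25HC of −0.16 ± 0.09 (adjusted p = 0.421). Gbp3 (0.47 ± 0.14) and Ifi205 (0.90 ± 0.36) were the other 2 of lowest p.

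Sterol genes, the ones 25HC is known to act on, had no member that passed. Of 29 tested genes of cholesterol synthesis and SREBP, 13 had a value above 0, 1 was positive (3.45%) and 3 negative (10.3%) at an unadjusted p under 0.05, with a median of −0.10. Insig1, which retains SREBP in the endoplasmic reticulum, had 1357 and 1309 bp in 25HC then PAM3, 1805 and 1418 bp in 25HC, 2072 and 2183 bp in PAM3, and 1402 and 1444 bp in untreated libraries. The PAM3 libraries were above the others, and the difference of −0.72 ± 0.20 did not pass (limma adjusted p = 0.335). Srebf1, the gene of SREBP-1 and an LXR target, had −0.36 in mouse A and −1.51 in mouse B (adjusted p = 0.359). Sc5d, a late enzyme of the pathway, had −0.60 ± 0.23 (adjusted p = 0.488).

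LXR targets and oxysterol handling genes had 29 tested members, with 2 positive and 2 negative (6.9% each) at an unadjusted p under 0.05 and a median of −0.11. Abcg8, which forms a sterol exporter with its neighbour Abcg5, had 0 bp in both 25HC then PAM3 libraries, 1767 and 1858 bp in 25HC, 1408 and 1934 bp in PAM3, and 2283 and 2260 bp in untreated libraries. Its window overlaps those of Abcg5 and Lrpprc, and its limma adjusted p was 0.0734. Npc1, the lysosomal cholesterol exporter, had 0.50 ± 0.19. Abca1 had 0.41 ± 0.23 and Abcg1 −0.21 ± 0.17, and neither passed. Ch25h itself had 1881 and 0 bp in 25HC then PAM3, 2271 and 1826 bp in 25HC, 1960 and 2266 bp in PAM3, and 0 and 1861 bp in untreated libraries, so single libraries at 0 set its difference.

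Antigen presentation genes had 17 tested members, with 2 positive (11.8%), none negative and a median of 0.07. Cd1d1, which presents lipids to NKT cells, had 4869 and 4633 bp in 25HC then PAM3, 1807 and 1485 bp in 25HC, 1027 and 1649 bp in PAM3, and 3046 and 2980 bp in untreated libraries. It rose with PAM3 after 25HC, by 1.27 ± 0.15 on the log2 scale (limma adjusted p = 0.0161), and fell without it, by 0.91 ± 0.15 (adjusted p = 0.039, and 0.0805 with the block). The difference was 2.18 ± 0.21, 2.26 in mouse A and 2.1 in mouse B (adjusted p = 0.0734). Ciita, the master regulator of MHC class II genes, had 5260 and 7053 bp in 25HC then PAM3, 5548 and 9493 bp in 25HC, 2433 and 2097 bp in PAM3, and 11048 and 9411 bp in untreated libraries. Both PAM3 libraries were below the other 6. Ciita fell without 25HC by 1.91 ± 0.27 (adjusted p = 0.0284, and 0.0633 with the block), with a response after it of −0.26 ± 0.27 (adjusted p = 0.66) and a difference of 1.65 ± 0.38 (adjusted p = 0.252).

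Alternative activation genes had 13 tested members, with 3 positive (23.1%), none negative and a median of 0.04. Arg1, arginase and a marker of that state, had 6082 and 6619 bp in 25HC then PAM3, 4109 and 3978 bp in 25HC, 3487 and 2645 bp in PAM3, and 5059 and 5115 bp in untreated libraries. The 4 groups did not overlap, with 25HC then PAM3 highest and PAM3 lowest. Its difference was 1.18 ± 0.27 (limma adjusted p = 0.249). Clec7a, the β-glucan receptor, fell without 25HC by 1.49 ± 0.27 (adjusted p = 0.0475, and 0.0835 with the block) and had a difference of 1.05 ± 0.39 (adjusted p = 0.463). Within 2 kb of its start the difference was only 0.0048 ± 0.30 (limma adjusted p = 0.999). The start had 733 and 992 bp in 25HC then PAM3, and 2493 and 2527 bp in 25HC. It had 1071 and 617 bp in PAM3, and 2547 and 2560 bp in untreated libraries. The window of Clec7a overlaps those of Clec1a and Olr1. Tgm2, a transglutaminase, had 0.53 ± 0.21.

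Macrophage markers had 32 tested members, with 4 positive and 4 negative (12.5% each) at an unadjusted p under 0.05 and a median of −0.13. C1qa, a subunit of complement C1q, had 1739 and 2546 bp in 25HC then PAM3, 4278 and 4494 bp in 25HC, 4736 and 5136 bp in PAM3, and 4874 and 4722 bp in untreated libraries. It fell with PAM3 after 25HC by 0.93 ± 0.14 (limma adjusted p = 0.0266, and 0.0587 with the block), while the response without 25HC was 0.08 ± 0.14 (adjusted p = 0.823); the difference of −1.01 ± 0.20 did not pass (adjusted p = 0.197) and was 0.92 with only peaks of a −log10 q of at least 5. C1qb and C1qc, whose windows overlap that of C1qa, were also negative. The 4 positive members were Cd14, whose values are given above, Fcgr3, Ctsb and Cd36. Adgre1, which encodes F4/80, had 13703 and 14755 bp in 25HC then PAM3, 4242 and 5210 bp in 25HC, 17121 and 21938 bp in PAM3, and 3247 and 4010 bp in untreated libraries. It rose in both settings, by 1.48 ± 0.14 after 25HC (limma adjusted p = 0.0106) and by 2.32 ± 0.14 without it (adjusted p = 0.0109), with a difference of −0.84 ± 0.20 (adjusted p = 0.257).

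**Figure D5:**
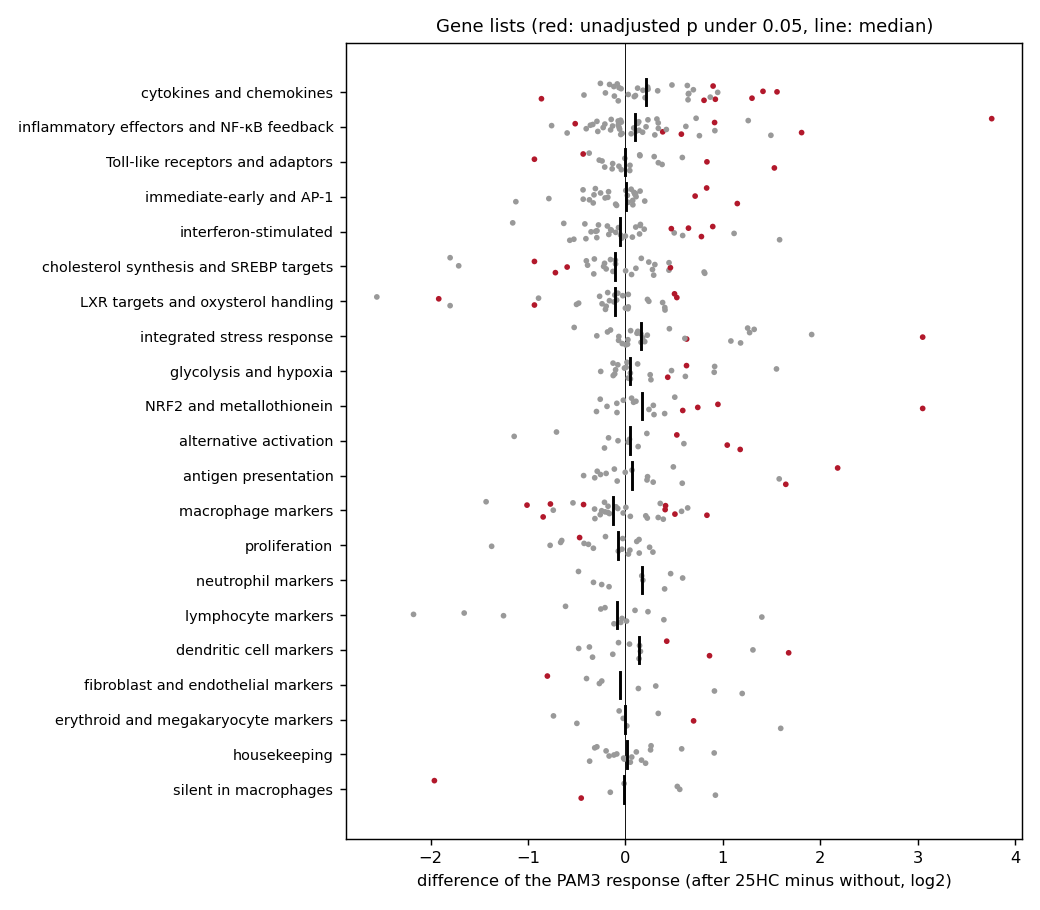
The difference of the PAM3 response (x axis, log2) of each tested member of the 21 gene lists, red where the unadjusted p was under 0.05 and grey otherwise, with a black line at the list's median. The median is 0.21 for cytokines and chemokines and −0.13 for macrophage markers; none of the points passed the adjusted test.

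The medians of the 3 lists of metabolism and stress were above 0 in all 24 alternative settings, which reuse the same libraries. The lowest was 0.026 for the integrated stress response, 0.00092 for NRF2 and metallothionein, and 0.038 for glycolysis and hypoxia. In these settings the median over all tested genes ran from −0.047 to 0.062. The integrated stress response had 28 tested genes, 2 positive (7.14%) and none negative at an unadjusted p under 0.05, with a median of 0.16. NRF2 and metallothionein genes had 18, with 4 positive (22.2%), none negative and a median of 0.17. Glycolysis and hypoxia genes had 22, with 2 positive (9.09%), none negative and a median of 0.05. Slc7a11 is counted in both of the first lists, and 4.49% of all tested genes were negative at that p. Slc7a11, the cystine transporter, had 12310 and 12628 bp in 25HC then PAM3, 3035 and 0 bp in 25HC, 3728 and 4732 bp in PAM3, and 3209 and 4259 bp in untreated libraries. Prdx1, a peroxiredoxin, rose with PAM3 after 25HC by 1.38 ± 0.20 (limma adjusted p = 0.0257, and 0.0581 with the block), with a response without it of 0.64 ± 0.20 (adjusted p = 0.157) and a difference of 0.74 ± 0.28 (adjusted p = 0.478) that was −1.14 with only peaks of a −log10 q of at least 5. Of the others at low p, Phgdh, which starts serine synthesis, had 0.63 ± 0.17, Gsr, glutathione reductase, 0.95 ± 0.35, Srxn1, sulfiredoxin, 0.59 ± 0.21, Hk1, a hexokinase, 0.43 ± 0.13, and Ero1a, an oxidase of the endoplasmic reticulum, 0.63 ± 0.22. Proliferation genes had 19 tested members, of which E2f8, a repressor of the cell cycle, was negative (−0.47 ± 0.13) and none positive, with a median of −0.07. Housekeeping genes had 18 tested members, none at an unadjusted p under 0.05, and a median of 0.02.

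Markers of other cell types also carried peaks. Siglech, a marker of plasmacytoid dendritic cells that microglia also express, had 1854 and 1804 bp in 25HC then PAM3, 3559 and 4120 bp in 25HC, 325 and 329 bp in PAM3, and 4180 and 5193 bp in untreated libraries. It fell in both settings, by 0.92 ± 0.15 after 25HC (limma adjusted p = 0.0313, and 0.0666 with the block) and by 2.60 ± 0.15 without it (adjusted p = 0.00996), and the difference of 1.68 ± 0.21 had an adjusted p of 0.107 and was −0.18 in a window with 1 kb on either side. Ccr9 (0.42 ± 0.16) and Clec9a (0.86 ± 0.33) were the other 2 of 13 tested dendritic cell markers at an unadjusted p under 0.05; the list's median was 0.14. Its summed called length was 75.03 to 78.1 kb in 25HC then PAM3, 79.4 to 86.1 kb in 25HC, 64.3 to 83.8 kb in PAM3 and 86.4 to 88.8 kb in untreated libraries, with Cd209a at 0 in all 8. Lymphocyte markers summed to 21.1 to 23.6 kb in 25HC then PAM3, 28.9 to 33.4 kb in 25HC, 22.3 to 28.9 kb in PAM3 and 26.4 to 29.6 kb in untreated libraries, with 6 of 22, Cd3e, Cd8a and Pax5 among them, at 0 throughout. None of the 14 tested was at an unadjusted p under 0.05 and their median was −0.08. Their part in the differences was not tested.

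Of 9 tested neutrophil markers none was at an unadjusted p under 0.05, with a median of 0.17; Ly6g, S100a9 and 3 others of the 15 were at 0 in all 8 libraries, and the sums were 22.4 to 23.8 kb in 25HC then PAM3, 24.6 to 25.0 kb in 25HC, 22.0 to 25.2 kb in PAM3 and 26.0 to 29.4 kb in untreated libraries. Of 8 fibroblast and endothelial markers Postn, a matrix protein, was negative (−0.80 ± 0.22), with a median of −0.06 and 5 of the 16 listed genes at 0 in all 8 libraries. Of 8 erythroid and megakaryocyte markers Pf4, a platelet chemokine, was positive (0.70 ± 0.26), with a median of −0.0043 and Gata1 and Alas2 at 0. Among 7 tested genes of 25 listed as silent in macrophages, Apoa2 and Ddx4 were negative, with a median of −0.01. The window of Apoa2 overlaps that of Fcer1g.

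The remaining genes of smallest p with peaks in all 8 libraries and a positive value were low in PAM3. Psmd1, a proteasome subunit, had 8663 and 7951 bp in 25HC then PAM3, 6440 and 6967 bp in 25HC, 1912 and 1866 bp in PAM3, and 7263 and 8014 bp in untreated libraries. It fell with PAM3 without 25HC by 1.72 ± 0.14 (limma adjusted p = 0.0117), with a response after it of 0.27 ± 0.14 (adjusted p = 0.344) and a difference of 1.99 ± 0.19 (adjusted p = 0.0734). Its window overlaps that of Htr2b, and within 2 kb of its start the difference was −0.01, so the values lie elsewhere in the window. Adtrp, a hydrolase of fatty acid esters, had 7630 and 6824 bp in 25HC then PAM3, 6522 and 8139 bp in 25HC, 1902 and 2368 bp in PAM3, and 9133 and 9453 bp in untreated libraries. It fell without 25HC by 1.85 ± 0.13 (adjusted p = 0.0117), and its response after 25HC was −0.04 ± 0.13 (adjusted p = 0.939). Casr, the calcium-sensing receptor, shares its window with Cd86, a co-stimulatory ligand. It had 2323 and 2594 bp in 25HC then PAM3, 1248 and 1615 bp in 25HC, 500 and 860 bp in PAM3, and 2255 and 2485 bp in untreated libraries, and a difference of 1.85 ± 0.19 (adjusted p = 0.0734).

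The 5 negative genes of smallest p with peaks in all 8 libraries took several forms. Bms1, a ribosome assembly factor, had 1226 and 1243 bp in 25HC then PAM3, 1231 and 1241 bp in 25HC, 3241 and 3583 bp in PAM3, and 1290 and 1256 bp in untreated libraries. It rose without 25HC by 1.19 ± 0.09 (limma adjusted p = 0.0117) with a response after 25HC of −0.03 ± 0.09 (adjusted p = 0.942), and within 2 kb of its start the difference was 0.01. Stil, a centriole assembly factor, had 2206 and 3149 bp in 25HC then PAM3, 7453 and 10102 bp in 25HC, 5726 and 6954 bp in PAM3, and 5169 and 5395 bp in untreated libraries. It fell after 25HC by 1.57 ± 0.17 (adjusted p = 0.0138), with a response without it of 0.28 ± 0.17 (adjusted p = 0.446) and a difference of −1.85 ± 0.24 (adjusted p = 0.113). Dennd1b, a regulator of endocytic traffic, fell after 25HC by 1.12 ± 0.14 (adjusted p = 0.0174) and had a difference of −1.52 ± 0.19 (adjusted p = 0.107), which was 2.18 with only peaks of a −log10 q of at least 5. Nynrin rose without 25HC by 0.60 ± 0.09 (adjusted p = 0.0348, and 0.0682 with the block) and Tspyl3 by 0.77 ± 0.11 (adjusted p = 0.0296, and 0.0575 with the block), with differences of −1.05 ± 0.13 and −1.21 ± 0.16 (adjusted p = 0.107 and 0.108). Within 2 kb of the start they were −0.22 ± 0.07 for Nynrin and −0.36 ± 0.08 for Tspyl3 (limma adjusted p = 0.531 and 0.263). The window of Nynrin overlaps that of Cbln3, and that of Tspyl3 overlaps Plagl2. Those of Bms1 and Dennd1b overlap Zfp248 and Crb1.

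Windows with a group at 0 bp are given by their called lengths, since the 500 bp added sets the size of a log2 change there. In 55 of them both 25HC then PAM3 libraries were at 0 and the other 6 libraries were called; the count was 17 for 25HC, 39 for PAM3 and 15 for untreated. For single libraries at 0 with the other 7 called, it was 65, for 25HC from mouse A, to 250, for PAM3 from mouse B. Pycard, the inflammasome adaptor ASC, had 2178 and 2078 bp in 25HC then PAM3, 0 bp in both 25HC libraries, 1954 and 2281 bp in PAM3, and 1555 and 1656 bp in untreated libraries. Yars2, the mitochondrial tyrosyl-tRNA synthetase, had 0 bp in both 25HC then PAM3 libraries, 1804 and 1860 bp in 25HC, 1887 and 1947 bp in PAM3, and 1947 and 1917 bp in untreated libraries. Rab29, a GTPase of vesicle traffic, had 1399 and 1559 bp in 25HC then PAM3, 2195 and 2361 bp in 25HC, 1466 and 1518 bp in PAM3, and 0 bp in both untreated libraries. In each, 1 group lacked the peak in both mice and the other 6 libraries had it. The limma adjusted p of the difference was 0.0734 for all 3, and can be too small because 2 libraries at 0 show no spread. With only peaks of a −log10 q of at least 5 the difference of Yars2 was 1.03, of the opposite sign.

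The promoters of these 3 genes are shown since each was covered in full, 300 of 300 bases, in 6 libraries and not at all in the 2 of 1 group. They are RefSeq sequences on GRCm38.p6, chr7:127993818-127994117 on the minus strand for Pycard, chr16:16302715-16303014 on the plus strand for Yars2 and chr1:131867027-131867326 on the plus strand for Rab29, with capitals for a PU.1 core on either strand.
Pycard: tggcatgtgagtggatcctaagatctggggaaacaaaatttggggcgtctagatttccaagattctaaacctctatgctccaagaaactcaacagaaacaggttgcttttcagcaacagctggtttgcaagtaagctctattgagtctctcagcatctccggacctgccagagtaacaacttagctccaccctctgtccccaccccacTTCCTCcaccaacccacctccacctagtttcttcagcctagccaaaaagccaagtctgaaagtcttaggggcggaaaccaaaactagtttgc
Yars2: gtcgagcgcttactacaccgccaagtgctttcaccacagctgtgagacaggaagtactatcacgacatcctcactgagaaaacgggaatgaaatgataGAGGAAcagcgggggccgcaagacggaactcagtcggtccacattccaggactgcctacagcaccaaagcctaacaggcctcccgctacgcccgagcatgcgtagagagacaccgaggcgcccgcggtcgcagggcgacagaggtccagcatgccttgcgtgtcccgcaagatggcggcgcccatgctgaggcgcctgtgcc
Rab29: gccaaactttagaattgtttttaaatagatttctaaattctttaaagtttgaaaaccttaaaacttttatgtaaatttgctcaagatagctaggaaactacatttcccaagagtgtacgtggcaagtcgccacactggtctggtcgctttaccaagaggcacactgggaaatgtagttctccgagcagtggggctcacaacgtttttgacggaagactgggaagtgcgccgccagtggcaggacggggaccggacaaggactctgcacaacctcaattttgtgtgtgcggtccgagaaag
Pycard and Yars2 hold 1 PU.1 core each, as do 27.4% of promoters, and Rab29 none. None of the 3 holds the κB or AP-1 letters in this stretch.

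Jph4, a junctophilin whose window overlaps Ap1g2, had 4036 and 3579 bp in 25HC then PAM3, 0 bp in both 25HC libraries, 3325 and 4108 bp in PAM3, and 1789 and 1697 bp in untreated libraries. Map3k7cl had 0 bp in both 25HC then PAM3 libraries, 3355 and 3420 bp in 25HC, 1552 and 2469 bp in PAM3, and 3933 and 4175 bp in untreated libraries. Both also had a limma adjusted p of 0.0734. Where a library but no group was at 0 bp, the genes of smallest p were Prrx1, Kcnn3 and Fgfr1 with positive values and Zhx1, Tmem178 and Fbp2 with negative ones. Prrx1, a homeobox factor of mesenchyme, had 2834 and 3485 bp in 25HC then PAM3, 1283 and 994 bp in 25HC, 0 and 241 bp in PAM3, and 1328 and 1499 bp in untreated libraries (adjusted p = 0.0734). Zhx1, a zinc-finger and homeobox factor, had 0 and 505 bp in 25HC then PAM3, 2297 and 2301 bp in 25HC, 4828 and 5325 bp in PAM3, and 2480 and 2833 bp in untreated libraries (adjusted p = 0.133).

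Of 24 other settings tried for the difference, 15 gave no gene and 9 gave at least 1. The window of 2 kb on either side of the gene start gave 79 of 12001 genes (0.658%), 37 positive (0.308%) and 42 negative (0.35%), the most of any setting that kept all 8 libraries. It is described here because of that count, and its genes were chosen after their values were seen. With the mouse as a block 16 of the 79 passed, and without 1 library at a time 89 to 550 genes passed, 34 of the 79 in every such fit. Where strand is unknown the window lies around both gene ends, as for 20 of the 79, Tlr4, Arg1, Dusp4 and Slc16a7 among them. Of the 79, 34 had peaks in all 8 libraries (0.349% of such genes) and 44 had a group at 0 bp (13.2%), 22 of them with 25HC then PAM3 at 0, 8 with 25HC, 8 with PAM3 and 6 with untreated. In the same order, 52, 17, 41 and 21 tested gene starts had that group at 0 and the other 6 libraries called. Over the whole gene window 78 of the 79 had the same sign and 47 an unadjusted p under 0.05. The window holds at most a few kb, so libraries that fill it or lie at 0 show almost no spread and the adjusted p can be too small.

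Among the 34 gene starts with peaks in all 8 libraries, 25HC then PAM3 was the group farthest from the other 3 in 17, above them in 8 and below in 9. Arg1 had 2114 and 2391 bp in 25HC then PAM3, 1081 and 1111 bp in 25HC, 368 and 403 bp in PAM3, and 1288 and 1262 bp in untreated libraries. Its difference there was 1.74 ± 0.11 on the log2 scale (limma adjusted p = 0.00699, and 0.0517 with the block). Tgm1, a transglutaminase best known from skin, had 2875 and 2833 bp in 25HC then PAM3, 953 and 995 bp in 25HC, 694 and 820 bp in PAM3, and 1068 and 1093 bp in untreated libraries, with a difference of 1.47 ± 0.07 (limma adjusted p = 0.00453, and 0.0432 with the block). Dusp4, a phosphatase of MAP kinases, had 4000 bp in both 25HC then PAM3 libraries, 2859 and 2880 bp in 25HC, 1956 and 2105 bp in PAM3, and 2897 and 2803 bp in untreated libraries (adjusted p = 0.00951, and 0.0484 with the block).

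Eef2, the translation elongation factor, went the other way, with 898 and 1019 bp in 25HC then PAM3, 2332 and 2470 bp in 25HC, 2420 and 2608 bp in PAM3, and 2617 and 2521 bp in untreated libraries. Both 25HC then PAM3 libraries were below all others, and the difference was −1.02 ± 0.06 (limma adjusted p = 0.00843, and 0.0524 with the block). Ski, a repressor of TGF-β signalling, had 673 and 689 bp in 25HC then PAM3, 2080 and 2154 bp in 25HC, 1809 and 2019 bp in PAM3, and 2457 and 2214 bp in untreated libraries (adjusted p = 0.01, and 0.0608 with the block). Tmem104 and Card19, a CARD protein, were positive (0.0432 and 0.0672 with the block) and Slc16a7, a transporter of monocarboxylates, negative (0.0672 with the block). Tlr4 had 2641 and 3302 bp in 25HC then PAM3, 3082 and 3022 bp in 25HC, 359 and 626 bp in PAM3, and 3209 and 3248 bp in untreated libraries, with a difference of 1.83 ± 0.17 (adjusted p = 0.0214, and 0.0666 with the block). Its window sums both gene ends. The 359 and 626 bp in PAM3 lay at the higher-coordinate end, with no peak called at the lower-coordinate end. Its place among starts with peaks in all 8 libraries therefore rests on that sum.

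Starts with a group at 0 bp in both libraries included Bach1, a repressor of haem oxygenase. It had 0 bp in both 25HC then PAM3 libraries, 2576 and 2486 bp in 25HC, 2275 and 2371 bp in PAM3, and 2391 and 2970 bp in untreated libraries. Rpl6, a ribosomal protein gene, had 0 bp in both 25HC then PAM3 libraries, 1285 and 1223 bp in 25HC, 1201 and 1215 bp in PAM3, and 1240 and 1489 bp in untreated libraries. Lrp10, a receptor of the LDL receptor family, had 1403 and 1402 bp in 25HC then PAM3, 1352 and 1371 bp in 25HC, 0 bp in both PAM3 libraries, and 1470 and 1407 bp in untreated libraries. The limma adjusted p was 0.0062 for Bach1, 0.0327 for Rpl6 and 0.0119 for Lrp10, and with the block 0.0484, 0.129 and 0.0672. In these genes too a whole peak was missing from both libraries of 1 group while the other 6 had it.

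Across the genome the pattern was counted in bins of 1 kb, called where peaks covered at least 50% of the bin. Of 117757 bins called in at least 1 library, 40120 were alike in both libraries of every group, and 25550 of those were called in all 4 groups. In 9723 of the 40120 the calls changed with PAM3 in another way after 25HC than without it. The largest such pattern was 25HC then PAM3 alone, with 3617 bins, followed by PAM3 alone with 1464, all groups but 25HC then PAM3 with 1434, untreated alone with 1333, and all groups but PAM3 with 726. These counts are a description with no test. Bins on which the libraries of a group disagree are left out. The PAM3 libraries lay farthest apart in covered length (56.6 and 72.4 Mb), so the order of the patterns can depend on that filter.

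Total covered length gave no difference beyond the spread. It was 63.5 and 69.6 Mb in 25HC then PAM3, 59.9 and 64.6 Mb in 25HC, 56.6 and 72.4 Mb in PAM3, and 68.4 and 65.4 Mb in untreated libraries. The difference of the PAM3 response was 6.72 Mb, with 15.5 Mb in mouse A and −2.01 Mb in mouse B (two-sided exact permutation p = 0.4 over 70 relabellings). Without PAM3 from mouse A it was −1.16 Mb.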

How the data were processed

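Acetyl-H4 ChIP-seq libraries, made from DNA immunoprecipitated with a rabbit polyclonal antibody and prepared with the KAPA Hyper Prep kit per the labels' protocols, gave reads that GSNAP aligned to GRCm38, also named mm10, and peaks from MACS2 2.1.0, according to the submitters' processing notes. Control libraries and calling thresholds are not known from these sources. The deposited files are broad peak lists, 1 per library. Starts and ends of peaks, as the authors deposited them, gave the called bp per gene window. The deposited fold ratio and the deposited −log10 q of each peak are the authors' values and served only in alternatives. Across peaks matched between the 2 libraries of a group (70% reciprocal overlap), the rank correlation was 0.963 to 0.969 for length, 0.112 to 0.224 for the fold and 0.0904 to 0.185 for the −log10 q.

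Gene bodies came from RefSeq on GRCm38.p6, of which 17491 of 21883 protein-coding genes had a strand through the promoter table. Log2 of called bp plus 500, with each library's median subtracted, went into a limma 3.58.1 model under R 4.3.3 (4 group means, empirical Bayes with trend and robust settings, 4 residual degrees of freedom, 3 with the block). A log2 value therefore understates changes of genes with little called length. P-values were adjusted by Benjamini-Hochberg over the 14586 genes. The fit was tested on simulated data. Covered length was compared with scipy 1.17.1 and Python 3.11.15. Windows of neighbouring genes can share a peak.

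The letters A and B name the same mouse in each group per the labels, so they pair the libraries. The deviations of same-mouse libraries from their group means correlated at −0.0171 to 0.0304. Genes, lists and comparisons were chosen with earlier results of these data known. Named genes were, per class and direction, those of smallest p among genes that had 1 sign in both mice (5 with peaks in all 8 libraries, 3 in each other class), up to 3 of each list at an unadjusted p under 0.05, and a fixed set; genes around gene starts were named after their values were seen. A gene that the rule names and a gene start are not reported here. Alternatives covered the block, each library left out, peak thresholds, pseudocounts, filters, windows, scaling and the variance model.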

Additional observations from a re-analysis of the deposited data

How the results depend on the processing

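The count of genes passing, 0, became 3 with 100 bp added, 5 with 1 kb on either side, 79 around the gene start, 32 without the trend and robust settings and 1 with only peaks of at least 1000 bp, an alternative chosen after seeing the data. Leaving out 1 library gave 0 to 192. Among genes with peaks in all 8 libraries it became 34 around the gene start and 5 without the trend and robust settings, and 0 to 45 without 1 library. Among genes with a group at 0 bp the 5 settings gave 3, 5, 44, 25 and 1, and leaving out 1 library 0 to 24. The block gave 0 for the difference in each class, and 16 calls, against 79, around the gene start. For the PAM3 responses, in fits added after seeing the data, it gave 281 calls after 25HC, against 733, and 168 without it, against 562, and leaving out 1 library gave 108 to 814 and 160 to 872. Leaving out 1 library there gave 89 to 550, and the other runs there 71 to 105. The lone library of a group is assumed to vary like the others. The difference of covered length ranged over −1.16 to 14.6 Mb without 1 library. The cause of these changes was not tested.

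The sign of single genes changed as follows, none of them past the threshold in the whole window. Around the gene start the difference was −0.0098 for Psmd1, 0.0077 for Bms1, 0.030 for Traf6, −0.18 for Gbp3, −0.11 for Gsr, 0.0037 for Tnf, 0.049 for Acod1 and −0.058 for Abca1. With only peaks of a −log10 q of at least 5 it was 2.18 for Dennd1b, 1.03 for Yars2, 0.72 for Map3k7cl, −2.29 for Sod2, 1.74 for Traf6, −0.71 for Egr2, −0.94 for Hk1, −0.78 for Srxn1, −1.14 for Prdx1, −0.77 for Clec7a, −0.68 for Tgm2, 0.92 for C1qa, 0.31 for Adgre1, 0.29 for E2f8, 0.35 for Apoa2, −0.58 for Il12a, −1.53 for Il12b, 0.42 for Ccl7, −0.92 for Lcn2, 2.29 for Acod1, 0.43 for Abcg1 and −0.050 for Atf3. With the same covered length it was −0.86 for Sod2, −0.52 for Phgdh, −0.23 for Clec7a, 1.17 for Postn, −0.018 for Il6, −1.30 for Il12b, 0.048 for Tnf and 0.82 for Acod1. Weighted by fold it was −0.59 for Sod2, 0.39 for Apoa2, −0.019 for Il1b and −0.093 for Lcn2. With the same number of peaks it was −0.63 for Phgdh, 0.13 for Postn, −0.70 for Il12b and 0.017 for Acod1. With peaks of at least 1000 bp it was −0.073 for Clec7a, 0.20 for Acod1, −0.00036 for Tlr1, 0.18 for Tlr2 and −0.16 for Abca1. With 1 kb on either side it was −0.18 for Siglech and 0.35 for Tlr2, and without median subtraction 0.023 for Acod1 and 0.029 for Tlr2. Without 1 library it ranged over −0.12 to 0.52 for Il12b, −0.28 to 0.047 for Ccl7, −0.32 to 0.23 for Acod1, −0.016 to 0.10 for Tlr1 and −0.16 to 0.074 for Tlr2. The deposited q and fold, on which 4 of these settings rest, hardly agreed between libraries of a group. Depth is unknown, so a missing peak is a missing call and not a measured absence.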
